A study of Mus musculus with 36 samples.

Results

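The T cell receptor complex and its proximal signalling machinery were followed through 9 genes, which were taken by name from the 24781 genes of the deposited count table. All 9 were present. *Cd3d*, *Cd3e*, *Cd3g* and *Cd247* encode the signalling subunits of the receptor, *Cd8a* and *Cd8b1* the 2 chains of the CD8 co-receptor, *Lck* and *Zap70* its proximal kinases, and *Lat* the adaptor on which the signal is assembled. As background, the antigen-binding chains of the receptor have no signalling domain of their own and depend on the CD3 and ζ chains, whose tyrosine motifs are phosphorylated by LCK. ZAP70 then binds these motifs and phosphorylates LAT, from which the calcium, RAS and NF-κB branches start. In CD8+ T cells LCK is brought to the receptor by CD8, which binds MHC class I on the target cell.

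The libraries came from MC38 tumours, formed by a mouse colon adenocarcinoma line injected into the skin, at day 7. Sorted cells were CD45+TCRβ+CD8+ T cells, described first, and CD45+CD11b+F4/80 hi tumour-associated macrophages (TAMs), which served as a measure of T cell RNA carried into another sort. For each cell type there were 6 libraries from wild-type (WT) mice, 6 from *muMt*-/- mice, which have no mature B cells, and 6 from *muMt*-/- mice with an implanted GABA pellet. The labels name no treatment for WT mice and for *muMt*-/- mice without GABA, whereas the methods of the study give them a placebo pellet. The *muMt*-/- mice were on a C57BL/6J background, while the WT strain is given as C57BL/6J or C57BL/6N. Adult mice of both sexes, a few months old, were used, and the sex and age behind each library were not given. Each library was made from 100 cells of 1 mouse, and its values are counts of distinct RNA molecules, read at the 3′ end. Levels are given as counts-per-million (CPM) of a library's molecules. Depth in CD8+ T cells was lowest in WT libraries, at 22896 to 76898 molecules (median 42065.5), against 51064 to 77839 in *muMt*-/- libraries (median 67121.5) and 65356 to 98015 with GABA (median 80283). TAM libraries were deeper, with 206394 to 304100, 100254 to 253608 and 151856 to 262606 molecules.

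The sorted T cells carried the RNA that defines their label, and also RNA of macrophages in amounts that differed between libraries. All 8 genes of a CD8+ T cell marker list were detected in each CD8+ T cell group, with *Thy1* the most abundant. Of 3 CD4+ T cell markers, *Foxp3* and *Cd40lg* were detected in WT libraries with *Cd4* at 0, all 3 in *muMt*-/- libraries, and *Cd4* and *Cd40lg* with GABA, with medians of 6.50, 27.3 and 18.8 CPM. Of 5 NK cell markers, 3 were detected in each group, with medians of 121, 179 and 278 CPM and *Ncr1* and *Klra8* at 0. The most abundant of them was *Tyrobp*, with 19, 79 and 99 molecules, which also had 1586 in WT TAM libraries. A list of 16 macrophage markers, led by *Ctss*, summed to 186.5 to 2010 CPM in WT libraries (median 388), 935 to 6455 in *muMt*-/- libraries (median 1484) and 304 to 3510 in GABA-treated *muMt*-/- libraries (median 2008). All 16 were detected in both *muMt*-/- groups and 13 in WT libraries, where *Adgre1*, *Mrc1* and *Mertk* were at 0. Relative to the mean of the 18 TAM libraries, the median level was 2.33% in WT libraries, 8.88% in *muMt*-/- libraries and 12.02% in GABA-treated *muMt*-/- libraries.

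Replicate 1 of both *muMt*-/- groups combined high macrophage markers with low levels of the 9 genes. Replicate 1 of the *muMt*-/- group had macrophage markers at 38.6% of the TAM level and the lowest value of its group for 8 of the 9 genes. Replicate 1 of the GABA-treated *muMt*-/- group had macrophage markers at 21.0%, close to the 20.7% of replicate 3 in that group, and was likewise lowest for 8 of the 9. Their part in the results below was measured by leaving them out, a step chosen after the data were seen. In these libraries fewer T cells among the sorted cells and less of an RNA per T cell cannot be told apart.

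The signalling subunits of the receptor overlapped in level between T cells of all 3 groups. *Cd3d*, encoding the δ subunit, was at 273 to 710.0 CPM in WT libraries (median 460), 252 to 662 in *muMt*-/- libraries (median 519) and 204 to 745 in GABA-treated *muMt*-/- libraries (median 471). The 3 ranges overlapped almost entirely, and the group means of 499 ± 159, 494 ± 162 and 481 ± 207 CPM (SD, n = 6 each) differed by far less than the spread within a group. *Cd3e*, encoding the ε subunit that pairs with both δ and γ, was at 135 to 373 (median 238), 126 to 403 (median 255) and 143 to 362 (median 257) CPM in the same order of groups. *Cd3g*, encoding the γ subunit, was at 131 to 429 (median 224), 110.2 to 354 (median 211.5) and 122 to 397 (median 263). For *Cd247*, which encodes the ζ chain with the most tyrosine motifs of the complex, the values were 79.1 to 306 (median 189.5), 47.2 to 308 (median 151) and 61.2 to 319 (median 201). For each of these 4 genes the groups overlapped, and the low end of both *muMt*-/- ranges was set by replicate 1.

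The co-receptor genes overlapped between groups as well, *Cd8b1* less than *Cd8a*. *Cd8a*, encoding the α chain, was at 406 to 970 CPM in WT libraries (median 745), 252 to 923.5 in *muMt*-/- libraries (median 613) and 235 to 1029 in GABA-treated *muMt*-/- libraries (median 595). *Cd8b1*, encoding the β chain, was at 520.2 to 1287 (median 824), 268 to 877 (median 526) and 276 to 956 (median 589). Its group means were 843 ± 314, 577 ± 215 and 592 ± 221 CPM (SD, n = 6 each), and 3 of 6 *muMt*-/- libraries and 2 of 6 GABA-treated ones lay below every WT library. The number of *Cd8b1* molecules per *Cd8a* molecule was 1.0 to 1.33 in WT libraries (median 1.18), 0.80 to 1.06 in *muMt*-/- libraries (median 0.92) and 0.89 to 1.17 in GABA-treated *muMt*-/- libraries (median 0.98). This ratio was examined after the values of both genes had been seen and is given without a test. The CD8 antibody listed in the methods is against the α chain, so that the presence of *Cd8a* is no finding.

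Among the kinases, *Lck* was at 208 to 653 CPM in WT libraries (median 383), 110.2 to 354 in *muMt*-/- libraries (median 304) and 133 to 623 in GABA-treated *muMt*-/- libraries (median 339). The group means were 396 ± 158, 271 ± 88.0 and 340.5 ± 164 (SD, n = 6 each), and 5 of 6 *muMt*-/- libraries lay within the WT range. *Zap70* was at 87.4 to 317 (median 177), 63.0 to 339 (median 202) and 63.0 to 348 (median 133) CPM. In the GABA-treated group a single library, replicate 5, gave the high value of 348, and the next was 144. The adaptor *Lat* was at 205 to 463 (median 313), 180 to 369 (median 296) and 51.0 to 413 (median 327.5), with replicate 1 of the GABA-treated group as the low value. No pair of groups was separate for either kinase or for *Lat*.

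**Figure D1:**
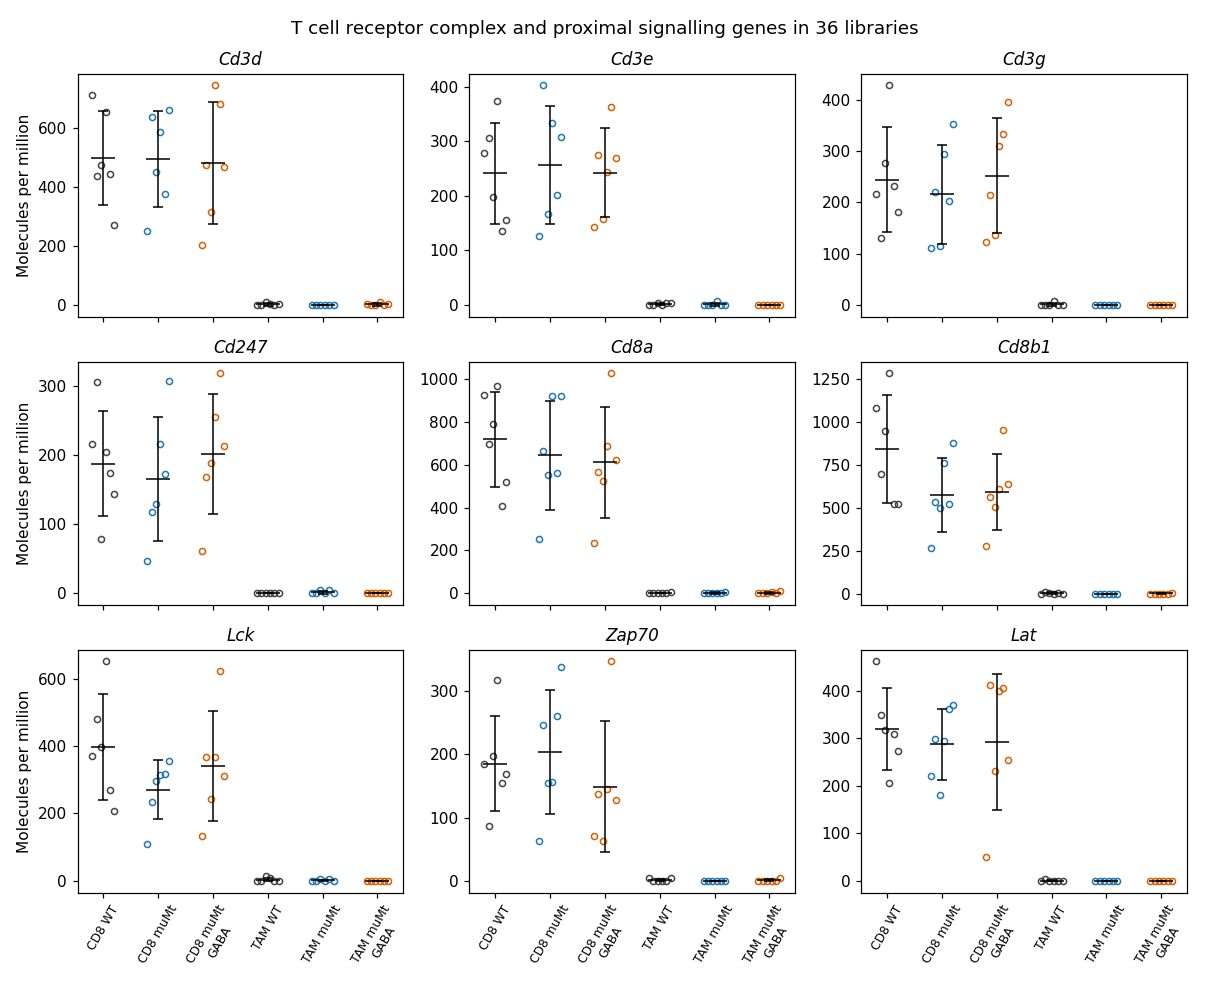
CPM of each of the 9 genes (vertical axis, linear and different for each panel) in the 36 libraries, by cell type and mouse group (horizontal axis); circles are single libraries, horizontal bars the mean and whiskers the SD of 6 libraries. The CD8+ T cell groups overlap for every gene, and TAM libraries lie at or near 0.

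Whether B cell deficiency changed these genes in T cells was tested with edgeR across the 6663 genes whose mean normalised number of molecules exceeded 1, a filter that all 9 passed. Between *muMt*-/- and WT mice, 0 of the 9 had an adjusted p under 0.05 (0.00% of all genes tested), and 0 had an unadjusted p under 0.05 (6.08% of all genes). DESeq2's Wald test also gave 0 of 9 by either rule (0.00% and 3.33% of all genes). The largest differences were those of *Cd8b1*, with a log2 difference of −0.42 (SE 0.27, edgeR adjusted p = 0.90), and of *Lck*, with −0.40 (SE 0.31, edgeR adjusted p = 0.95). Without WT replicate 4, which was highest within the WT group for 6 of the 9 genes, these were −0.20 and −0.11, and over all libraries left out in turn they reached −0.55 and −0.58. *Cd3e* was at 0.24 (SE 0.32), *Zap70* at 0.19 (SE 0.37), *Cd3d* at 0.13 (SE 0.28), *Cd3g* at −0.12 (SE 0.34), *Cd247* at −0.05 (SE 0.37), *Cd8a* at −0.02 (SE 0.28) and *Lat* at 0.01 (SE 0.32). Leaving out each library in turn, *Cd3e* ran from 0.043 to 0.48 and *Zap70* from 0.030 to 0.46. The median over all genes tested was itself 0.15, and the median of the 9 lay 0.17 below it, at −0.02. Leaving out each library in turn, it stayed below in all 12 fits. The distance ran from 0.29 (without *muMt*-/- replicate 4) to 0.023 (without *muMt*-/- replicate 1), so that its size rests on single libraries. With DESeq2's size factors the median of all genes was 0.06 and that of the 9 was −0.13. *Cd8b1* was then at −0.53, as 1 of the 9 with an unadjusted p under 0.05 in edgeR. The share of all genes is not given for that fit. DESeq2's Wald test with these size factors also put *Cd8b1* at −0.53, with an unadjusted p above 0.05. With TMM scaling over genes enriched in T cells, *Cd8b1* was at −0.24 and *Lck* at −0.20, both with an unadjusted p above 0.05.

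The GABA pellet was examined by comparing the 2 *muMt*-/- groups. Again 0 of the 9 had an adjusted p under 0.05 in edgeR (0.00% of all genes) and 0 an unadjusted p under 0.05 (3.69% of all genes), and DESeq2's Wald test gave 0 by either rule (0.00% and 2.0%, or 133, of all genes). *Zap70* had the largest log2 difference, −0.48 (SE 0.36, edgeR adjusted p = 1.0), followed by *Lck* at 0.33 (SE 0.30), *Cd247* at 0.30 (SE 0.33) and *Cd3g* at 0.24 (SE 0.32). The other 5 genes lay between −0.09 and 0.05. Without replicate 5 of the GABA-treated group, *Zap70* was at −0.89, with an unadjusted p under 0.05 in edgeR, and *Lck* at 0.089. Without replicate 6 of the *muMt*-/- group, *Zap70* was at −0.27. Leaving out each library in turn, *Cd247* ran from 0.13 to 0.60, *Cd3g* from 0.073 to 0.46 and *Lck* from 0.089 to 0.50. Here the median of the 9 was 0.03 and that of all genes tested 0.0046. The first less the second was 0.21 without replicate 1 of the GABA-treated group and −0.12 without its replicate 5.

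Between GABA-treated *muMt*-/- mice and WT mice, which share libraries with both comparisons above, 0 of the 9 passed an adjusted p of 0.05 in edgeR (0.00% of all genes) and 0 an unadjusted one (6.41% of all genes). DESeq2's Wald test gave 0 by either rule here as well (0.0150% and 3.33% of all genes). The log2 difference of *Cd8b1* was −0.37 (SE 0.26, edgeR adjusted p = 0.86), that of *Zap70* −0.29 (SE 0.38) and that of *Cd247* 0.25 (SE 0.35). The other 6 genes lay between −0.08 and 0.15. Without WT replicate 4, *Cd8b1* was at −0.10 and *Zap70* at 0.018, and without replicate 5 of the GABA-treated group they were at −0.54 and −0.70. Leaving out each library in turn, *Cd247* ran from 0.091 to 0.41 and *Cd3e* from 0.012 to 0.44. With TMM scaling over genes enriched in T cells, *Cd8b1* was at −0.22 and *Zap70* at −0.19. All genes had a median of 0.17, and the 9 genes one of 0.03. The second less the first was −0.14, and it ran from −0.26 without WT replicate 6 to 0.11 without replicate 1 of the GABA-treated group. With standard errors of 0.26 to 0.38 on the log2 scale, a missed threshold does not show that levels were alike.

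The fitted values moved when the macrophage markers entered the model. With the log2 percent of macrophage marker molecules as a covariate, all 9 genes had a positive log2 difference between *muMt*-/- and WT mice, from 0.25 for *Cd8b1* to 1.04 for *Zap70*. The median of the 9 was 0.55, which lay 0.44 above that of all genes, while *Cd8b1* lay 0.13 above it. An unadjusted p under 0.05 was then reached by 4 genes, *Cd3d*, *Cd3e*, *Cd8a* and *Zap70* (5.28% of all genes), and an adjusted one by 0 (0.00% of all genes). With GABA against WT the 9 values ran from 0.17 to 0.75. Their median was 0.53, which lay 0.40 above that of all genes, while *Cd8b1* lay 0.05 above it. An unadjusted p under 0.05 was reached by 4 genes (*Cd3d*, *Cd3e*, *Cd247* and *Cd8a*, beside 6.11% of all genes) and an adjusted one by 0 (0.0450% of all genes). Between the 2 *muMt*-/- groups, *Zap70* alone had an unadjusted p under 0.05 (4.56% of all genes), with a log2 difference of −0.72 (SE 0.30, edgeR adjusted p = 0.96), and an adjusted one was reached by 0 (0.09%, or 6, of all genes). Without the 2 libraries richest in macrophage markers, by contrast, the count at an unadjusted p under 0.05 was 0 in all 3 comparisons (4.94%, 4.30% and 5.54% of all genes), as was that at an adjusted one (0.00%, 0.00% and 0.0307% of all genes), and the median of the 9 was 0.10, 0.06 and 0.23 in the order *muMt*-/- against WT, GABA against no GABA, and GABA against WT, beside 0.12, 0.007 and 0.12 for all genes. Macrophage markers had higher medians in both *muMt*-/- groups than in WT mice, and their part in the differences between groups was not tested further.

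The makeup of the group, measured within each library as the percent of the 9 genes' summed molecules that each gene took, does not depend on how many molecules came from other cells that lack these genes. RNA of cells that carry only some of the 9 could still shift it. Markers of CD4+ T cells and NK cells, given above, had higher medians in both *muMt*-/- groups than in WT libraries. Their part in the shares was not tested. *Cd8b1* took 19.7% to 25.8% in WT libraries (median 22.8%), 15.9% to 19.7% in *muMt*-/- libraries (median 19.0%) and 16.2% to 21.3% in GABA-treated *muMt*-/- libraries (median 19.1%). All 6 *muMt*-/- libraries lay below every WT library, though the nearest ones, at 19.70% and 19.71%, almost met. The two-sided exact permutation test gave p = 0.0022, the smallest that 6 against 6 libraries allow. Against WT mice, the GABA-treated group had 4 of 6 libraries below every WT library (exact permutation p = 0.032). Leaving out each library in turn, the first exact permutation p was 0.0022 to 0.013. Groups that are fully separate stay so without any 1 library, so that this range is no sign of stability. The second exact permutation p rose to 0.05 or more for 7 of 12, at 0.019 to 0.067 (without WT replicate 1, 3 or 4, or GABA replicate 2, 4, 5 or 6). With centred log2 ratios of the 9 genes in place of percents, the 2 exact permutation p values were 0.015 and 0.048. Both *Cd8b1* differences rest on the same 6 WT libraries and are not independent. As percents, these *Cd8b1* shares were the 2 of 27 tested (9 genes in 3 comparisons) with an exact permutation p under 0.05, and chance alone gives some among 27. That count ran from 1 to 4 when a library was left out. After Benjamini-Hochberg adjustment over the 27 there were 0. A single share cannot pass that adjustment in this design, since the smallest p times 27 is 0.058, so that the 0 says little. *Cd3d* took 13.7% ± 2.19 in WT, 16.1% ± 2.34 in *muMt*-/- and 15.2% ± 2.40 in GABA-treated *muMt*-/- libraries, and *Lck* 10.7% ± 2.21, 8.81% ± 1.88 and 10.6% ± 1.11 (SD, n = 6 each).

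Across the 18 CD8+ T cell libraries the 9 genes varied together. Pearson's r of log2 CPM was positive for all 36 pairs of genes, with a median of 0.70 and a range from 0.43 for *Cd3g* with *Lat* to 0.94 for *Cd8a* with *Cd8b1*. *Lck* followed both co-receptor genes, with r = 0.87 for *Cd8a* and r = 0.89 for *Cd8b1*. *Lat* was in 3 of the 4 pairs with an r below 0.5. These values describe 18 libraries that share their depth and their content of other cells between genes, and they carry no test.

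Over the 18 libraries, levels of the 9 genes were negatively related to macrophage markers. Against the log2 level of the 16 macrophage markers, r over the 18 libraries was −0.80 for *Cd8b1* (Spearman's rho −0.78), −0.76 for *Lck* (rho −0.72) and −0.75 for *Cd8a* (rho −0.76). The weakest was −0.41 for *Lat* (rho −0.38). Within WT libraries r ran from −0.88 for *Cd3e* to 0.125 for *Lat*, with −0.13 for *Cd3g*, within *muMt*-/- libraries from −0.96 to −0.32, and within GABA-treated ones from −0.90 to −0.62. Taken as deviations from the group means, r ran from −0.83 for *Cd8a* to −0.41 for *Lat*, and without the 2 libraries farthest from the median it ran from −0.68 for *Cd8b1* to −0.23 for *Cd3g* over all groups. All of these are shares of the same total, so that more of any RNA lowers the others, and the relation is given as a description without a test.

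**Figure D2:**
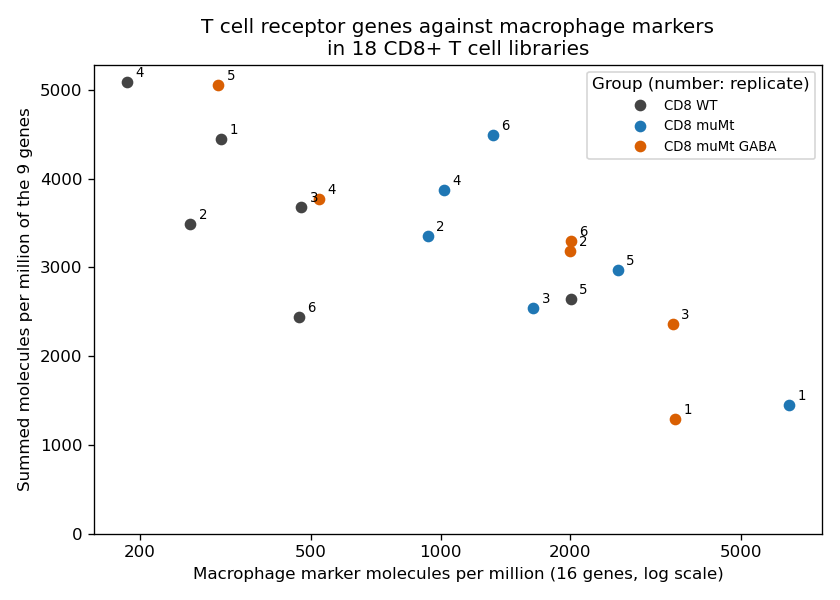
Summed CPM of the 9 genes (vertical axis, linear) against those of the 16 macrophage markers (horizontal axis, log scale) in the 18 CD8+ T cell libraries; each point is a library, coloured by mouse group and numbered by replicate. Replicate 1 of both *muMt*-/- groups has the lowest sums, 1448 and 1296, and WT replicate 4 the highest, 5090.

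The genes whose levels followed the 9 most closely were sought among 1874 genes with a mean normalised number of at least 5. By Pearson's r with the mean z-score of the 9 over the 18 CD8+ T cell libraries, these were *Nkg7* (r = 0.95), a membrane protein of cytotoxic granules, *Gimap4* (r = 0.86), a lymphocyte GTPase, *Klrc1* (r = 0.83), encoding the inhibitory receptor NKG2A, *Dusp2* (r = 0.82), a phosphatase of MAP kinases, and *Lime1* (r = 0.82), an LCK-interacting adaptor. *Nkg7* had a mean of 1262 CPM in CD8+ T cell libraries and 4.07 in TAM libraries, and *Klrc1* had 590.3 and 1.01.

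Other genes of the pathway were taken from lists of kinases and phosphatases near the receptor, adaptors, downstream branches and restraining molecules. Of 42 measured genes, 40 were tested in CD8+ T cells, and 0 had an adjusted p under 0.05 in edgeR in any of the 3 comparisons. The 6 antigen receptor chain genes on the lists had no row under the names searched and were not analysed. At an unadjusted p under 0.05, 1 was higher and 2 were lower in *muMt*-/- than in WT mice, beside 349 higher (5.24%) and 56 lower (0.840%) of all genes. In *muMt*-/- mice with GABA against those without, 0 were higher and 1 was lower, beside 112 (1.68%) and 134 (2.01%). With GABA against WT mice, 0 were higher and 2 were lower, beside 354 (5.31%) and 73 (1.10%). The median log2 difference of the 40 was −0.0062, −0.02 and −0.04 in these comparisons, beside 0.15, 0.0046 and 0.17 for all genes.

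Among the adaptors, *Fyb*, whose product ADAP links the receptor to integrin activation, was at 340 to 699 CPM in WT libraries (median 446), 169 to 277 in *muMt*-/- libraries (median 234) and 101 to 378 in GABA-treated *muMt*-/- libraries (median 274.5). The *muMt*-/- and WT ranges did not meet, but how many of all genes separate in this way was not counted. The log2 difference between these groups was −0.86 (SE 0.27, edgeR adjusted p = 0.39). For the GABA-treated group the log2 difference from WT was −0.68 (SE 0.26, edgeR adjusted p = 0.62). Both had an unadjusted p under 0.05, which neither kept with TMM scaling over genes enriched in T cells, where they were −0.68 and −0.49. With the macrophage marker covariate they were −1.10 and −0.89, again with an unadjusted p under 0.05. *Fyb* was also abundant in TAMs, with a median of 405 CPM in WT TAM libraries. Without WT replicate 2 the second difference had an unadjusted p above 0.05. *Sit1*, a transmembrane adaptor with 0 to 3 molecules in a library, was at 0 to 92.6 CPM (median 38.1), 0 to 26.0 (median 7.70) and 0 to 29.0 (median 15.6). Its log2 difference between *muMt*-/- and WT mice was −1.66 (SE 0.80, edgeR adjusted p = 0.79), with an unadjusted p under 0.05 that held in 3 of 8 alternatives and 5 of 11 fits without a library. *Sh2d2a*, encoding the LCK-binding adaptor TSAd, had medians of 418, 340 and 306 CPM, and *Grb2* had 165, 187 and 221.

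Among the kinases and phosphatases, *Ptprc*, encoding the CD45 phosphatase that activates LCK and was itself a sort marker, had medians of 1097, 1122 and 927 CPM in WT, *muMt*-/- and GABA-treated *muMt*-/- libraries. *Ptpn22*, a phosphatase that restrains LCK and ZAP70, was at 338 to 568 (median 455), 78.7 to 431 (median 263) and 91.8 to 356 (median 241). Its log2 difference from WT was −0.61 (SE 0.31) without GABA, with an unadjusted p above 0.05 in edgeR. Between the 2 *muMt*-/- groups it was −0.10 (SE 0.30). With GABA against WT it was −0.71 (SE 0.30, edgeR adjusted p = 0.73), with an unadjusted p under 0.05. With the macrophage marker covariate the last difference was −0.29, where that p was above 0.05. An unadjusted p under 0.05 for it held in 8 of 9 alternatives and 8 of 12 fits without a library (not without WT replicate 2 or 4, or GABA replicate 1 or 2). *Fyn*, the other SRC-family kinase of the receptor, had medians of 239.9, 261 and 222.

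Of the downstream genes, *Ppp3ca*, a catalytic subunit of calcineurin, was at 43.7 to 130.5 CPM in WT libraries (median 85.1), 97.9 to 189 in *muMt*-/- libraries (median 148.5) and 43.5 to 153 in GABA-treated *muMt*-/- libraries (median 88.2). Its log2 difference was 0.75 (SE 0.36, edgeR adjusted p = 0.79) between *muMt*-/- and WT mice and −0.67 (SE 0.33, edgeR adjusted p = 1.0) between the 2 *muMt*-/- groups, both with an unadjusted p under 0.05. That p held in 1 of 8 alternatives for the first difference, which was 0.38 with the macrophage marker covariate, and in 2 of 8 for the second, and in 5 and 6 of 12 fits without a library. In WT TAM libraries *Ppp3ca* had a median of 163 CPM, above that in WT T cells. *Sit1* and *Ppp3ca* were named after their values had been seen. The calcineurin targets *Nfatc3* and *Nfatc1* had medians of 193, 142 and 124 and of 143, 148 and 154 CPM, and the calcium channel gene *Orai1* had 155, 103 and 113. The restraining genes *Sla*, *Cd6* and *Cblb*, an adaptor that lowers receptor levels, a receptor-associated surface glycoprotein and a ubiquitin ligase, had medians of 398, 321 and 299.5, of 191, 117 and 131, and of 165, 126 and 142. For each of these downstream and restraining genes the groups overlapped.

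TAM libraries held traces of the 9 genes. The 6 WT TAM libraries had 23 molecules of them among 1468266, and each library had at least 1. In *muMt*-/- TAMs there were 6 molecules among 987468, in 4 of 6 libraries, and in GABA-treated *muMt*-/- TAMs 9 among 1207884, in 3 of 6. The mean summed level was 15.9, 5.39 and 7.30 CPM in these groups, or 0.44%, 0.17% and 0.23% of that in CD8+ T cell libraries of the same mouse group. Of the 9 molecules in the GABA-treated group, 5 were in replicate 6, and of the 23 in the WT group, 8 were in replicate 3. These means therefore rest in part on single libraries. *Cd3d*, *Cd3g*, *Cd8b1*, *Zap70* and *Lat* were at 0 in *muMt*-/- TAMs, which allows up to 3 molecules over the group, or 3.04 CPM. *Cd3e*, *Cd3g*, *Cd247*, *Lck* and *Lat* were at 0 in GABA-treated *muMt*-/- TAMs, which allows up to 2.48 CPM. These limits cover counting error alone.

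With such counts 0 of the 9 genes passed the filter in TAMs, so that they were in no test between TAM groups with the filter. Without a filter, edgeR gave 0 of 9 with an adjusted p under 0.05 between *muMt*-/- and WT TAMs (2.29% of all genes), 0 between *muMt*-/- TAMs with and without GABA (0.340% of all genes) and 0 between GABA-treated *muMt*-/- and WT TAMs (0.420% of all genes). The counts at an unadjusted p under 0.05 were 2 (11.9% of all genes), 1 (7.23%) and 1 (6.80%), each for genes with 0 to 5 molecules in a group. DESeq2's Wald test was run with the filter, which left none of the 9.

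The distance between the cell types was measured in WT mice, where sorting by TCRβ and CD8 sets the direction. All 9 genes were higher in CD8+ T cells with an adjusted p under 0.05 in edgeR (6.00% of the 8477 genes tested were higher), and nothing is read from that count. Over pooled molecules, *Cd3d* was 138.5 times as high (124 molecules in T cells and 5 in TAMs; exact 95% interval 57.8 to 434) and *Lck* 109.5 times (98 and 5 molecules; 45.4 to 345). *Cd8b1* was 295 times as high (211 and 4 molecules; 113 to 1091). Of the 5 TAM molecules, 3 were in WT TAM replicate 3 both for *Cd3d* and for *Lck*. Leaving out each of the 12 WT libraries in turn, a step added after the data were seen, the ratio ran from 109.8 to 291 for *Cd3d*, 86.8 to 229.9 for *Lck* and 244 to 506.5 for *Cd8b1*, with the highest value of the first 2 without that library. For *Cd247*, with 0 molecules in WT TAMs, the level in T cells was at least 87.5-fold higher than 3 molecules over the TAM group. The intervals cover counting error and not the spread between mice.

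The 9 genes lie on 5 chromosomes, in 2 clusters and 4 single loci (GRCm38.p6, the build of the mapped reads). *Cd3g* (chr9:44969572-44980431, minus strand) and *Cd3d* (chr9:44981769-44987052, plus strand) stand back to back with 1337 bases between them, and *Cd3e* (chr9:44998735-45009663, minus strand) lies beyond a gap of 11682 bases. *Cd8b1* (chr6:71322788-71337492) and *Cd8a* (chr6:71373427-71379171, plus strand) are 35934 bases apart. *Cd247* (chr1:165779952-165871153), *Zap70* (chr1:36761798-36782821), *Lck* (chr4:129548344-129573641) and *Lat* (chr7:126363827-126369705) lie alone. The 3′ end of *Cd247* overlaps the protein-coding gene *Pou2f1* on the opposite strand. Whether strand was used in counting was not given in the sources used here, so that molecules of these 2 genes may not be separated.

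Promoter sequence is shown for 4 genes that varied together, the back-to-back pair and the co-receptor gene with the kinase that followed it. RefSeq windows of 250 bases before a listed transcript start were found for 8 of the 9 genes, all but *Cd8b1*, with the first listed start used for *Lck* and *Zap70*. For *Cd3d*, *Cd3e*, *Cd247* and *Lat* that start lies inside the gene span given above, so that these windows overlap it. On either strand, the ETS core GGAA was in 8 of the 8, as it was in 93.4% of the 32851 windows of this length. The E-box CANNTG was in 7 (66.2% of all windows). The RUNX motif TGTGGT was found in *Lck* alone (14.0% of all windows). The GATA motif AGATAA was found in *Cd3g* alone (9.99% of all windows), and the TATA box TATAAA was in 0 (12.4% of all windows). Such matches are letters in a window and not sites. Capitals mark the ETS core and the RUNX motif, on either strand, in the windows of *Cd3g* (chr9:44980432-44980681, minus strand), *Cd3d* (chr9:44981536-44981785, plus strand), *Cd8a* (chr6:71373177-71373426, plus strand) and *Lck* (chr4:129573642-129573891, minus strand), each written from 5′ to 3′.
*Cd3g*: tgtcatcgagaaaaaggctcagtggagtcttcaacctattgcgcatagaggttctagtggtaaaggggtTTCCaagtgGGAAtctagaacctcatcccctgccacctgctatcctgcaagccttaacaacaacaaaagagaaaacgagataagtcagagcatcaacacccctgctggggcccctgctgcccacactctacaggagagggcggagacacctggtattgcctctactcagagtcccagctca
*Cd3d*: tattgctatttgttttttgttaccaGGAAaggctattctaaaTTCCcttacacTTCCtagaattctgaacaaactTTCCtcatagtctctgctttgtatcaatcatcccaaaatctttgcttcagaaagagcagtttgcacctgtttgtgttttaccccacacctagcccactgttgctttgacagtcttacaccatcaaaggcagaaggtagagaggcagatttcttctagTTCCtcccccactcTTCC
*Cd8a*: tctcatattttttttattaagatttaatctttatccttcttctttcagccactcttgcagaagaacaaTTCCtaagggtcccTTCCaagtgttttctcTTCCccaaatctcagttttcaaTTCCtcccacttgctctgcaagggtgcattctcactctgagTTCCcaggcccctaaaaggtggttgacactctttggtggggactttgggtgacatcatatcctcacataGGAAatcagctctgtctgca
*Lck*: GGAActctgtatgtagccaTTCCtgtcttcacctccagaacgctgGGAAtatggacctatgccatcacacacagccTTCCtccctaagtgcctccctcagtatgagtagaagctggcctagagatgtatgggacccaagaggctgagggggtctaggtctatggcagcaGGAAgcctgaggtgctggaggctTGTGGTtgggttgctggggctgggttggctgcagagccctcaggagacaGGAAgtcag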

How the data were processed

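The authors lysed 100 sorted cells per library, tagged RNA molecules with barcodes during oligo(dT)-primed reverse transcription, mapped reads with STAR (mm10, refFlat annotation), and deposited counts of distinct molecules per gene without normalisation. Of 24781 genes, 9188 had no molecule. Libraries were grouped by their labels. CPM are shares of a library's total, and normalised numbers are counts over DESeq2 size factors. Tests across genes used edgeR 4.0.16 (quasi-likelihood, TMM, Benjamini-Hochberg, 18 libraries per fit, 36 between cell types) in R 4.3.3. Shares and figures used Python 3.11.15. Alternatives were DESeq2 1.42.0 (size factors, Wald test), no filter, filterByExpr, fits to 12 libraries, a replicate block, the macrophage covariate, TMM over T cell enriched genes, leaving out each library and, chosen after the data were seen, leaving out the 2 libraries richest in macrophage markers. The edgeR step was tested on simulated counts, where wrong calls exceeded the nominal rate and the accepted rate was then raised. Genes named were the 9, the 3 most abundant of each pathway list, any with an adjusted p under 0.05, the 5 most alike and cell type markers. *Sit1*, *Ppp3ca* and the genes most opposite to the 9 were added after the data were seen. The genes and lists were chosen with earlier results of these data known.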

Additional observations from a re-analysis of the deposited data

Results flagged for a closer look

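Among 84 sets of 6 libraries examined, 16 held a library far from the rest of its group by Dixon's ratio. Chance gives about 1 in 20 for continuous values, but in 8 of the 16 the other 5 libraries were at 0, which fixes the ratio at its highest value. The 16 are therefore not compared with chance. In CD8+ T cells, macrophage markers stood out in WT replicate 5, at 2010 CPM with the next library at 475, and in *muMt*-/- replicate 1, at 6455 with the next at 2584. The latter library was also high for NK cell markers (566.8 CPM) and neutrophil markers (220.4). Neutrophil markers were high in WT replicate 6 (208.1) and in GABA-treated *muMt*-/- replicate 6 (141.7), and CD4+ T cell markers in WT replicate 1 (92.61). *Zap70* was high in GABA-treated *muMt*-/- replicate 5, at 347.8 CPM, with the next library at 144.4.

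In TAMs, 8 values stood apart, each from 1 to 3 molecules in a library. These were, in CPM, *Cd3d* at 12.77 in WT replicate 3, *Cd3g* at 7.98 in WT replicate 4, *Cd8a* at 3.957 in WT replicate 6, *Lat* at 4.845 in WT replicate 2, *Cd3e* at 6.868 in *muMt*-/- replicate 4, *Cd8a* at 8.033 in *muMt*-/- replicate 6, and *Cd8b1* and *Zap70*, both at 4.436, in GABA-treated *muMt*-/- replicate 6.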

How the results depend on the processing

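The number of the 9 genes with an adjusted p under 0.05 was 0 in each CD8+ T cell comparison under every alternative, leaving out each library included. Between cell types it was 9 of 9 with DESeq2's size factors, in fits to the 12 WT libraries, without a filter, with the replicate block and without each library, and other alternatives were not run there. Some log2 differences changed sign, as follows, and the cause was not tested. Most were near 0, but with the macrophage covariate they included those of *Cd8b1*, *Lck* and *Zap70*. With DESeq2's size factors in edgeR, *Lat* was −0.11 between *muMt*-/- and WT mice and −0.0066 between the *muMt*-/- groups, and with GABA against WT *Cd3d* was −0.047, *Cd3g* −0.0074 and *Lat* −0.11. DESeq2's Wald test gave *Lat* −0.11 and −0.0043 and, with GABA against WT, *Cd3d* −0.048, *Cd3g* −0.0035 and *Lat* −0.12. filterByExpr gave *Cd3d* −0.017 and *Lat* −0.13, then *Lat* −0.030, then *Cd3d* −0.10, *Cd3e* −0.016, *Cd3g* −0.052 and *Lat* −0.16, in the same order of comparisons. Without a filter *Cd8a* was 0.036, *Cd3d* 0.0038, and with GABA against WT *Cd8a* 0.0043 and *Lck* 0.017, and 72, 11 and 64 of all genes passed the adjusted threshold, against 0 with it. In fits to 12 libraries *Lat* was −0.030 between *muMt*-/- and WT mice. With the macrophage covariate the first comparison gave *Cd3g* 0.41, *Cd247* 0.55, *Cd8a* 0.74, *Cd8b1* 0.25 and *Lck* 0.36, the second *Cd8b1* −0.074 and *Lat* −0.080, and the third *Cd8a* 0.53, *Cd8b1* 0.17, *Lck* 0.50 and *Zap70* 0.32. TMM over T cell enriched genes gave *Cd3g* 0.025, *Cd247* 0.051 and *Cd8a* 0.13, then *Lat* −0.070, then *Cd8a* 0.032 and *Lck* 0.048. Without the 2 libraries richest in macrophage markers, chosen after the data were seen, *Cd247* was 0.099 and *Cd8a* 0.12, then *Cd3d* 0.0069, then *Cd8a* 0.070 and *Lck* 0.083. Replicate numbers do not pair the libraries (correlations from −0.18 to 0.28 in CD8+ T cells), and with the replicate number as a block *Lat* was −0.011, −0.0046 and −0.016. Leaving out each library in turn, *muMt*-/- against WT ran from −0.045 to 0.26 for *Cd3d*, −0.29 to 0.17 for *Cd3g*, −0.30 to 0.11 for *Cd247*, −0.14 to 0.13 for *Cd8a* and −0.090 to 0.11 for *Lat*. Between the *muMt*-/- groups it ran from −0.21 to 0.13 for *Cd3d*, −0.22 to 0.097 for *Cd3e*, −0.25 to 0.11 for *Cd8a*, −0.12 to 0.23 for *Cd8b1* and −0.098 to 0.26 for *Lat*. With GABA against WT it ran from −0.12 to 0.28 for *Cd3d*, −0.049 to 0.45 for *Cd3g*, −0.27 to 0.12 for *Cd8a*, −0.31 to 0.26 for *Lck*, −0.70 to 0.018 for *Zap70* and −0.14 to 0.23 for *Lat*. For the shares, 0 of 27 passed the adjustment with centred log2 ratios, where a single share could not pass it, so that this 0 says little. Without the co-receptor genes 0 of 21 passed. Few molecules of each gene in a library limit the precision.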

Other observations

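The genes that ran most opposite to the 9 over the 18 CD8+ T cell libraries were *Hspa5* (r = −0.85), *Clec7a* (r = −0.82), *Ptgs2* (r = −0.82), *Basp1* (r = −0.81) and *Marcks* (r = −0.81), chosen after the data were seen. *Clec7a*, encoding the macrophage lectin Dectin-1, had a mean of 239 CPM in CD8+ T cell libraries and 1021 in TAM libraries, and *Marcks* had 102 and 825. *Hspa5*, encoding an endoplasmic reticulum chaperone, had 694 and 1192.

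Markers of 3 further cell types were less abundant than those of CD8+ T cells. Tumour and stroma markers, led by *Col3a1*, had medians of 156, 516 and 186 CPM in CD8+ T cell libraries of WT, *muMt*-/- and GABA-treated *muMt*-/- mice, with *Krt8* and *Krt18* at 0. *Sox13*, the measured γδ T cell marker, was at 0 in all 6 groups. Dendritic cell markers had medians of 256, 249 and 238, nearly all from *Ccr7*, which T cells also express.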
